A study of Mus musculus with 59 samples.

Results

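In fasted mouse liver, 525 of 9613 BCL6 peaks had no counterpart within 200 bp in the BCL6 list of fed C57BL/6 liver or in any PPAR list. They were chosen by the positions of peak centers, as the fasted BCL6 peaks with no center within 200 bp in the fed BCL6 list, the fed and fasted PPARα lists or the fed and fasted PPARδ lists, and are called gained-alone peaks here. These 5 lists and the fasted BCL6 list come from livers of male wild-type C57BL/6 mice, fed ad libitum or fasted overnight. A further BCL6 list, from livers of fed male *Bcl6* fl/fl mice on the same strain, was not used to choose the peaks. These mice carry loxP-flanked *Bcl6* alleles without Cre and are the controls of a liver knockout. Each of the 7 lists combines 3 ChIP-seq replicates and holds positions only. Depth and peak height are therefore unknown, no value has an error between replicates, and a peak missing from a list may be weaker there rather than absent.

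BCL6 is a zinc finger repressor best known from germinal center B cells, where it recruits corepressors and silences target genes. Its DNA element resembles that of the STAT factors. PPARα is the fatty acid-activated nuclear receptor that turns on lipid oxidation and ketogenesis in the fasted liver, and PPARδ recognizes the same direct repeat. Most BCL6 peaks in liver lie at PPAR peaks. Of the fasted list, 13.8% had no PPAR center within 200 bp, 20.4% had no fed BCL6 center, and 5.46% had neither.

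The element that BCL6 is known to bind, TTCCTAGAA, stood without a mismatch in the central 50 bp of 10 gained-alone peaks. For 8 of them the central window is printed to show the element in its peak. All 50-bp windows are the plus strand of GRCm38 (mm10), from the RefSeq assembly, named by the nearest protein-coding gene, with the element in capitals. Where the capitals read TTCTAGGAA, the element is on the minus strand.
Vps13b (chr15:35377390-35377439): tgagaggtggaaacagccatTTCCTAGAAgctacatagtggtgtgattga
Nr1i2 (chr16:38237213-38237262): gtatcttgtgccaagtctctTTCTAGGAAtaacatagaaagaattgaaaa
Gsdmc (chr15:63500508-63500557): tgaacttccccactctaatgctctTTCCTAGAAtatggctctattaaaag
Pkp4 (chr2:59286435-59286484): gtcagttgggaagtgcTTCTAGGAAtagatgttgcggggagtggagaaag
Chsy1 (chr7:66136325-66136374): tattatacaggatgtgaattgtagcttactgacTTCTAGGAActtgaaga
Foxa2 (chr2:148005566-148005615): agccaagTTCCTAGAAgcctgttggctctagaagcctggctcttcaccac
Fat1 (chr8:44972177-44972226): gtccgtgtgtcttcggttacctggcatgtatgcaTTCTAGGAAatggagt
Gbp4 (chr5:105145823-105145872): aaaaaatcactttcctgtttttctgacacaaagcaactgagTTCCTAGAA

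The windows at *Vps13b* and *Nr1i2* held the element at the very center of the peak. *Vps13b* encodes a Golgi lipid transport protein, and its peak lay in intron 2, 6296 bp downstream of the transcription start site (TSS). *Nr1i2* encodes PXR, the xenobiotic receptor, although its peak lay in intron 11 of the neighboring *Gsk3b*, 57587 bp from the *Nr1i2* TSS. The *Foxa2* peak was intergenic, 39874 bp from the TSS of this pioneer factor of hepatocytes. The nearest fed BCL6 center to these 8 peaks was between 12038 bp (*Foxa2*) and 156788 bp (*Vps13b*) away. In the fed floxed list, however, 5 of the 8 had a center within 44 bp, those at *Vps13b*, *Nr1i2*, *Gsdmc*, *Pkp4* and *Foxa2*, and *Chsy1*, *Fat1* and *Gbp4* did not.

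A further 4 windows of 200 bp are printed because they lie in promoters of genes from the lists of fasting and clock genes compared here. Capitals mark a match to any of the 20 elements described further on.
Nr1d1 (chr11:98775537-98775736): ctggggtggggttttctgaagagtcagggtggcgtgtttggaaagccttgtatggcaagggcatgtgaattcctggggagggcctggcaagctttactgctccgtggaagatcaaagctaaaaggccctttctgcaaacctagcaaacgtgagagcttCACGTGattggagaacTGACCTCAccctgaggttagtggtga
Ehhadh (chr16:21788202-21788401): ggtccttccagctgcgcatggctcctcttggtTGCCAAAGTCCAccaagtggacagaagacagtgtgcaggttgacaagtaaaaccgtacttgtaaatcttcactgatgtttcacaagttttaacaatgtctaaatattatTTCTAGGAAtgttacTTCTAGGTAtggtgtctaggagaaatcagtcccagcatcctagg
Per3 (chr4:151045146-151045345): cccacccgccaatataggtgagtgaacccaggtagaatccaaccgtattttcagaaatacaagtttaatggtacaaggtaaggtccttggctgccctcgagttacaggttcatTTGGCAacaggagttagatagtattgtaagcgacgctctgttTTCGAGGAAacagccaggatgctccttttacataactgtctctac
Acot2 (chr12:83986857-83987056): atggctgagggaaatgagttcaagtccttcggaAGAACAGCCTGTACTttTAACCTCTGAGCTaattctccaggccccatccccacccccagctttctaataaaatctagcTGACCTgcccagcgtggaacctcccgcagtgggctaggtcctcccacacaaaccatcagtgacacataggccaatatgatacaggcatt

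The peak at *Nr1d1*, which encodes the clock repressor REV-ERBα, lay 259 bp upstream of the TSS. Its 200 bp held an E-box, CACGTG, and a nuclear receptor half-site within a CREB element with 1 mismatch, TGACCTCA. The peak at *Per3*, a core clock gene, lay 580 bp upstream and held a BCL6 element with 1 mismatch, 59.5 bp from its center, and an NFI half-site. *Ehhadh* encodes the peroxisomal bifunctional enzyme of fatty acid oxidation. Its promoter peak, 467 bp upstream, held an exact BCL6 element on the minus strand 45.5 bp from the center and a second with 1 mismatch 60.5 bp away. It also held an exact HNF4 element that overlaps an NFI half-site. At *Acot2*, a mitochondrial acyl-CoA thioesterase, the peak lay 905 bp upstream and held no BCL6 element, but a glucocorticoid receptor (GR) element with 1 mismatch, a PPAR direct repeat with 2 and an exact nuclear receptor half-site. The nearest PPAR center was 407 bp away at *Acot2*, 399 bp at the *Ehhadh* promoter, 252 bp at *Nr1d1* and 130626 bp at *Per3*. The peaks at *Nr1d1*, *Per3* and *Ehhadh* had a center in the fed floxed list, and the peak at *Acot2* did not.

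The 200 bp limit chose the peaks, so distances to the lists it used are given without a test. The nearest fed BCL6 center was a median of 21272 bp away (quartiles 4836 and 66169 bp), and 203 peaks (38.7%) had one within 10 kb. The nearest center of any PPAR list was a median of 5297 bp away (quartiles 1098 and 22793 bp), and 307 peaks (58.5%) had a fasted PPARα center within 10 kb. The 3 peaks nearest to the limit on the inside were 201, 201 and 202 bp from an excluded center, near *Dclre1a*, *Larp1b* and *Ces1c*. The 3 nearest on the outside were 196, 199 and 199 bp away, near *Cyp4v3*, *Crip2* and *C1qtnf3*. Between 200 and 1000 bp from an excluded center lay 133 of the 525 peaks, and 31 were more than 100 kb from any. The peaks were scattered, with 10 (1.90%) within 10 kb of another gained-alone peak, and they were found on all 19 autosomes and X, at 3.85% (chromosome 3) to 8.17% (chromosome 7) of the fasted BCL6 peaks.

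**Figure D1:**
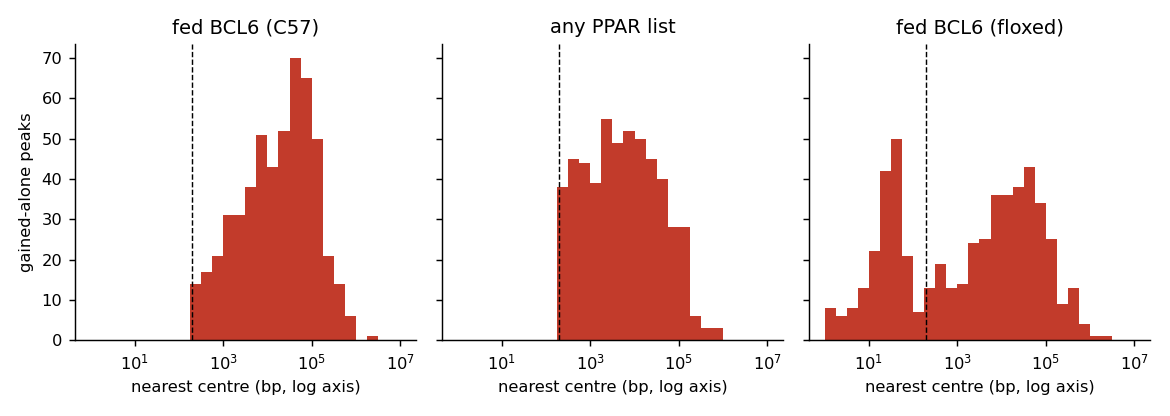
Histograms of the distance from each of the 525 gained-alone peaks to the nearest peak center of the fed C57BL/6 BCL6 list, of any PPAR list and of the fed floxed BCL6 list, on a log axis in bp (distances under 1 bp drawn at 1 bp). The dashed line is the 200 bp limit, which empties the left side of the first and second panels by construction. In the floxed panel, 179 peaks lie at or under the limit.

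The gained-alone peaks were compared with 3 classes drawn by the same distances. Gained peaks at PPAR sites were absent from the fed BCL6 list but had a PPAR center within 200 bp (1432 peaks). Kept-alone peaks were in both BCL6 lists without a PPAR center (802 peaks, from the fasted list). Lost-alone peaks were in the fed list only, without a PPAR center (2548 peaks). The nearest PPAR center was a median of 6846 bp from kept-alone and 10402 bp from lost-alone peaks, beside the 5297 bp of gained-alone peaks. Of the fasted peaks without a fed counterpart, 26.8% were gained alone. The corresponding share without a PPAR center was 31.9% of the peaks lost with fasting and 10.5% of those present in both states. Shares carry 95% Wilson intervals. Pairs of classes were compared by Fisher's exact test, two-sided, and p-values were adjusted by Benjamini and Hochberg. Peaks of a list come from the same pooled livers and are not replicates, so the tests compare lists, not mice.

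A fed BCL6 list that the choice had not used still held a part of the gained-alone peaks. In fed floxed livers, 179 of 525 had a BCL6 center within 200 bp (34.1%, interval 30.2 to 38.3), against 80.4% of all fasted BCL6 peaks. The other 346 peaks were in neither fed list. Gained peaks at PPAR sites were in the floxed list more often, at 54.3% (51.7 to 56.9), a difference of -20.2 percentage points (-24.9 to -15.3, adjusted p = 2.71e-15, odds ratio 0.435). Kept-alone peaks reached 84.4% (81.7 to 86.8). They were drawn by a call in the fed C57BL/6 BCL6 list, and the gained-alone peaks by the lack of one. A gap in a second fed BCL6 list follows from that choice, so no test is given for it. Lost-alone peaks stood at 37.0% and did not pass the test against the gained-alone peaks, with a difference of -2.95 points (-7.31 to 1.60, adjusted p = 0.213). Named members with a floxed center included those at *Socs2*, a growth hormone-induced inhibitor of cytokine signaling, whose floxed center was 1 bp away, and *Bcor* and *Hdac4*, which encode a BCL6 corepressor and a histone deacetylase. Genotype cannot be told apart from any difference in depth or handling between the floxed and C57BL/6 lists. The floxed list is the longer, with 17454 peaks against 15642.

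**Figure D2:**
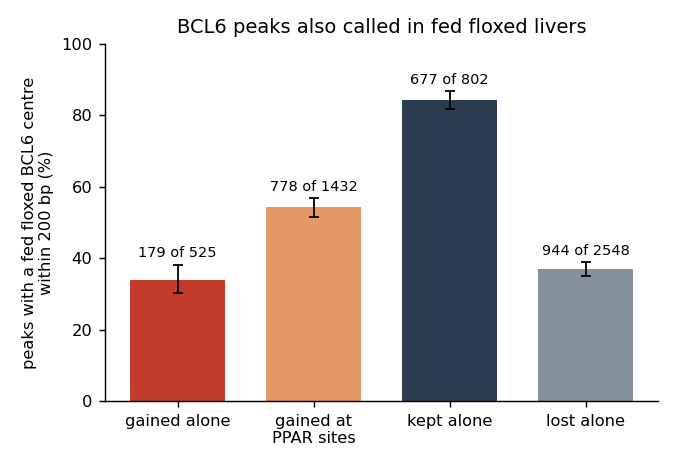
Share of BCL6 peaks in each class with a peak center of the fed floxed list within 200 bp, in percent, with 95% Wilson intervals and the counts above the bars. Gained-alone peaks (34.1%) sit beside lost-alone peaks (37.0%) and below gained peaks at PPAR sites (54.3%) and kept-alone peaks (84.4%).

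The BCL6 element was more frequent at the center of gained-alone peaks than at gained peaks with a PPAR, although most peaks of both classes lacked it. TTCCTAGAA with at most 1 mismatch, on either strand, was found in the central 50 bp of 53 gained-alone peaks (10.1%, 7.80 to 13.0). It was in 2.58% (1.88 to 3.54) of gained peaks at PPAR sites, 7.51 points less (interval of the difference 5.03 to 10.5, adjusted p = 3.83e-09 over 60 element tests, of which 15% passed). Kept-alone peaks held it more often, at 17.5% (difference -7.36 points, -11.0 to -3.57, adjusted p = 0.00210). Lost-alone peaks held it at 9.30%, which did not pass the test (difference 0.794 points, -1.79 to 3.86, adjusted p = 0.918). For reference, windows of the same length 1000 bp to either side of the gained-alone peaks held the element in 1.62% (1.01 to 2.58), the central windows of all peaks of the 7 lists in 3.24%, and RefSeq promoters in 1.27%. The element read backwards was in 0.571% of the gained-alone windows.

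Matches gathered at the peak center. Counted in 25-bp bins, gained-alone peaks had 7.62 and 6.10 matches per 100 peaks in the 2 bins next to the center, and a mean of 0.960 per bin from 200 to 500 bp away. Kept-alone peaks reached 13.0 per 100 peaks and lost-alone peaks 5.93, whereas gained peaks at PPAR sites did not exceed 1.89 within 100 bp of the center. In the central 200 bp, 161 gained-alone peaks (30.7%, 26.9 to 34.7) held the element. Most gained-alone peaks thus had none under this search, and in the central 50 bp the best match had 3 mismatches in 222 peaks and 4 in 158.

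**Figure D3:**
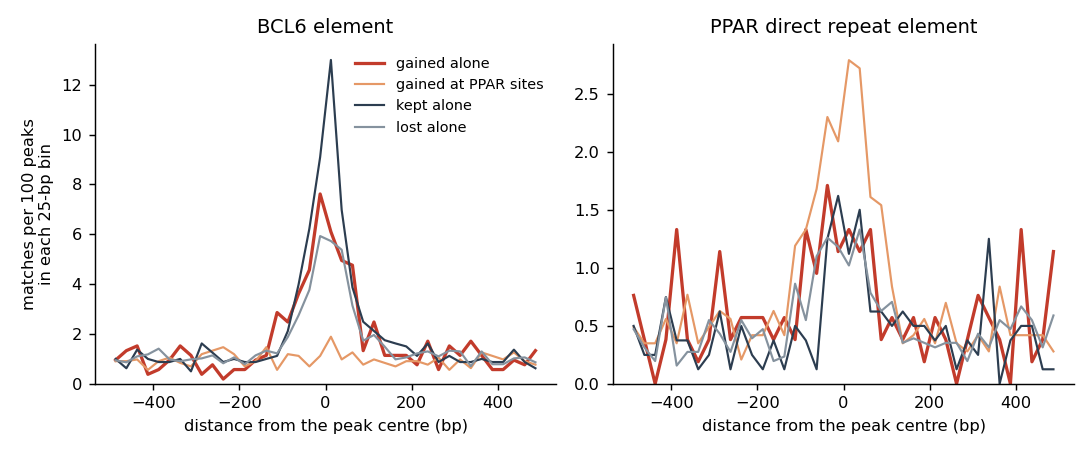
Matches to the BCL6 element (left, at most 1 mismatch) and the PPAR direct repeat (right, at most 2 mismatches) per 100 peaks in 25-bp bins, by distance from the peak center in bp, for the 4 classes. The BCL6 element peaks at the center of gained-alone peaks at 7.62 per 100 peaks and does not exceed 1.89 per 100 peaks within 100 bp of the center of gained peaks with a PPAR.

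The presence of the element differed between the gained-alone peaks that the floxed list did and did not call. This comparison was made after the values above were seen, and its 22 tests were adjusted together. Of the 179 peaks with a floxed center, 31 held the BCL6 element (17.3%, 12.5 to 23.5). Of the 346 without one, 22 did (6.36%, 4.24 to 9.44, odds ratio 3.08, adjusted p = 0.00401). The first share is near the 17.5% of the kept-alone peaks. With floxed-called peaks only, in every class, the element was still more frequent than in gained peaks at PPAR sites (odds ratio 6.58, adjusted p = 7.03e-09), and the differences from kept-alone peaks (0.916, adjusted p = 1.0) and lost-alone peaks (1.56, adjusted p = 0.276) did not pass. With the peaks that the floxed list lacked, in every class, the odds ratios were 3.35 (adjusted p = 0.0491), 0.538 (0.759) and 0.803 (1.0) in the same order. The corresponding shares were 18.6% and 11.2% in kept-alone peaks, 11.9% and 7.79% in lost-alone peaks, and 3.08% and 1.99% in gained peaks at PPAR sites. *Hdac4*, *Foxa2*, *Nr1i2*, *Tbc1d1* and *Sumf1* each had a gained-alone peak with both a BCL6 element and a floxed center, while *Klf9*, a glucocorticoid-induced regulator, had one with the element and no floxed center.

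**Figure D4:**
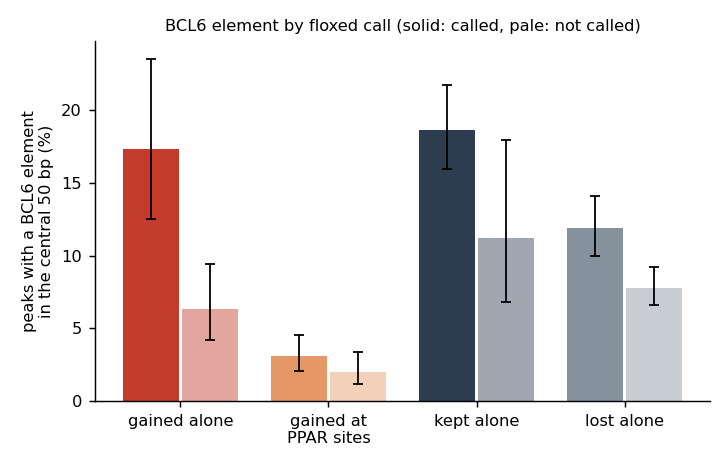
Share of peaks with a BCL6 element in the central 50 bp, in percent with 95% Wilson intervals, for peaks with (solid) and without (pale) a fed floxed center within 200 bp in each class. Among gained-alone peaks the shares are 17.3% and 6.36%.

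The PPAR element was found in few gained-alone peaks, whose choice had used the PPAR peak calls but no sequence. A direct repeat of AGGTCA with a 1-bp spacer and at most 2 mismatches was in 8 central windows (1.52%, 0.774 to 2.98), against 3.77% of gained peaks at PPAR sites. The difference of -2.25 points (-3.59 to -0.553) did not pass Fisher's exact test (adjusted p = 0.0748), but it passed in the 200-bp window (7.62% against 13.5%, adjusted p = 0.00168). Because PPAR calls had separated these classes, a lower share of this repeat, or of its half-site, follows from the choice. The tests against gained peaks at PPAR sites therefore cannot be read as a result about the gained-alone peaks. Kept-alone peaks held the direct repeat at 1.75% and lost-alone peaks at 1.41%, and neither share passed against the gained-alone peaks (adjusted p = 0.988 for both). The flanks held it in 0.476%. Single AGGTCA half-sites were in 27 gained-alone windows (5.14%) and in 5.75 points more of the gained peaks at PPAR sites (adjusted p = 0.00142). The element of HNF4, a nuclear receptor that keeps hepatocyte identity, was likewise less frequent (3.43% against 7.05%, adjusted p = 0.0197), but not past the threshold when soft-masked bases could not match (adjusted p = 0.0692). Against kept-alone and lost-alone peaks, neither the half-site (6.23% and 5.97%, adjusted p = 0.834 and 0.902) nor HNF4 (5.36% and 4.12%, adjusted p = 0.384 and 0.902) passed. The flanks held the half-site in 2.29% and the HNF4 element in 1.52%. Median GC content, which moved with these classes, was 46.0% in gained-alone peaks, 47.5% in gained peaks at PPAR sites, 43.5% in kept-alone and 42.0% in lost-alone peaks. Its part in the element results was not tested.

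Among the other elements, STAT sites followed the BCL6 element. TTCNNNGAA, which an exact BCL6 element always contains, was in 43 gained-alone windows (8.19%), of which 36 also held a BCL6 element. It was in 2.65% of gained peaks at PPAR sites (odds ratio 3.27, adjusted p = 9.04e-06) and in 13.7% of kept-alone peaks (0.561, adjusted p = 0.0175). Among peaks without a BCL6 element neither difference passed (1.73 and 0.539, adjusted p = 0.430 for both). The element of PU.1, an ETS factor of myeloid and B cells (GAGGAAGT), was rare but differed from lost-alone peaks, with 6 of 525 against 1 of 2548 (1.14% against 0.0392%, odds ratio 29.4, adjusted p = 0.00210, and 7.25 in the 200-bp window). It did not pass against gained peaks at PPAR sites (0.279%, adjusted p = 0.138) or kept-alone peaks (0.499%, adjusted p = 0.590). The flanks held it in 0.476% (0.204 to 1.11), more than the lost-alone peaks. All 6 gained-alone peaks with the PU.1 element, at *Cmah*, *Pdzd8*, *Ifnab*, *Tchp*, *Slco1a4* and *Rras2*, had a floxed center, against 0 of the 346 without one (adjusted p = 0.0109). The member windows closest to the center for these elements are printed, STAT sites without a BCL6 element at *Gucy1a1* and *Ap5z1* and PU.1 elements at *Ifnab* and *Slco1a4*, with the element in capitals.
Gucy1a1 (chr3:82175733-82175782): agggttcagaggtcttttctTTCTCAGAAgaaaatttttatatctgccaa
Ap5z1 (chr5:142440986-142441035): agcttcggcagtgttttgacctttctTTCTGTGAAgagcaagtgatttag
Ifnab (chr4:88693552-88693601): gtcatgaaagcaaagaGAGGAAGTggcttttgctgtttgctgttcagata
Slco1a4 (chr6:141855871-141855920): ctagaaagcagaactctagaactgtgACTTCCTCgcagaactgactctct

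The elements of HNF6 and HNF1, homeodomain factors of hepatocytes, were each less frequent in gained-alone peaks than in one other class. TATTGAT, the core of HNF6, was in 15 gained-alone windows (2.86%, 1.74 to 4.66) and in 6.24% of lost-alone peaks (odds ratio 0.442, adjusted p = 0.0172). In the 200-bp window the shares were 5.14% and 14.9% (odds ratio 0.310, adjusted p = 1.40e-09). Gained peaks at PPAR sites (2.09%, adjusted p = 0.740) and kept-alone peaks (4.99%, adjusted p = 0.267) did not pass in 50 bp, and the flanks held 0.762%. An HNF1 element was in 1 gained-alone window, at *Rnf186*, and in 1.87% of kept-alone peaks (odds ratio 0.100, adjusted p = 0.0284). In the 50-bp windows neither the HNF6 nor the HNF1 difference passed when soft-masked bases could not match (adjusted p = 0.156 and 0.0795). That of HNF1 did not pass in the 200-bp window either (odds ratio 0.594, adjusted p = 0.203). Across all 2080 sequences of 6 bases, compared with kept-alone and lost-alone peaks together, 0.0481% were more frequent and 0.144% less frequent in gained-alone peaks. The less frequent ones were AATCAA (3.81% against 11.3%, adjusted p = 2.20e-05), ATCAAT (4.57% against 11.5%, adjusted p = 2.46e-04) and TATTGA (4.38% against 9.37%, adjusted p = 0.0416), and the last 2 are pieces of the HNF6 core on one strand or the other. The flanks held these at 2.76%, 2.29% and 1.62%, so the gained-alone shares were not below the flanks. The more frequent one was CAGCCA (9.71% against 4.63%, adjusted p = 0.00575), which was in 7.61% of gained peaks at PPAR sites and 6.00% of the flanks. Median GC content was higher in gained-alone (46.0%) than in kept-alone (43.5%) and lost-alone peaks (42.0%). Its part in this scan was not tested. Elements of FOXA, C/EBP, NFI, AP-1, CREB, GR and the other factors searched passed against none of the 3 classes, and the NFI half-site TTGGCA was in 45 gained-alone windows (8.57%, 6.47 to 11.3) and between 7.14% and 8.35% of the other classes.

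**Figure D5:**
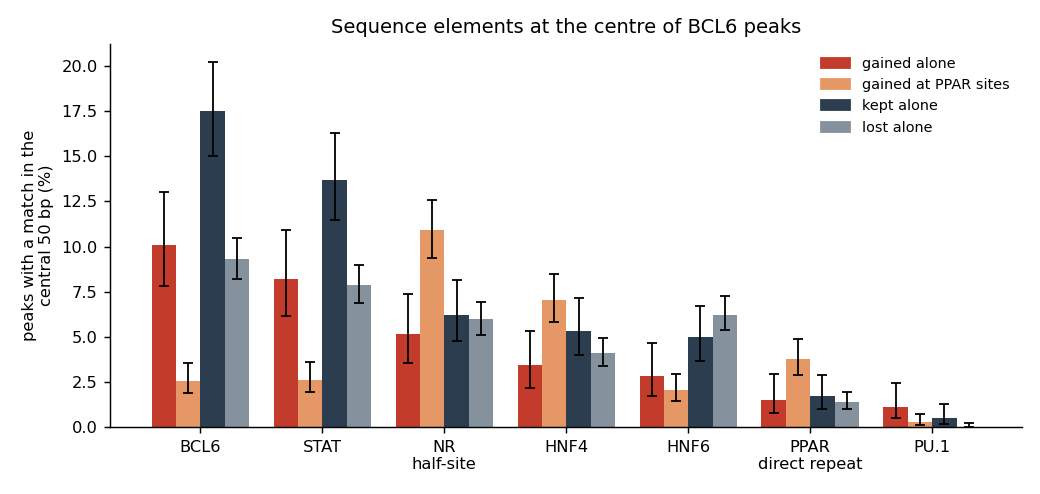
Share of peaks with a match to each of 7 elements in the central 50 bp, in percent with 95% Wilson intervals, for the 4 classes. Gained-alone peaks hold the BCL6 element at 10.1% and the nuclear receptor (NR) half-site at 5.14%, where gained peaks at PPAR sites hold them at 2.58% and 10.9%.

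By annotation, 283 gained-alone peaks (53.9%) were centered in introns, 221 (42.1%) between genes and 21 (4.00%) in exons or UTRs. The other 3 classes were similar, with 53.3% to 54.5% in introns, 41.5% to 44.2% between genes and 2.55% to 4.05% in exons or UTRs. The nearest protein-coding TSS was a median of 21805 bp away. This median was 20816 bp for gained peaks at PPAR sites, 23350 bp for kept-alone and 30537 bp for lost-alone peaks. In promoters, which reached 1000 bp upstream and 100 bp downstream from a TSS, lay 35 peaks (6.67%), against 3.85% of lost-alone peaks (difference 2.82 points, 0.812 to 5.38, adjusted p = 0.0191). The shares of gained peaks at PPAR sites (6.15%) and kept-alone peaks (5.24%) did not pass against it (adjusted p = 0.675 and 0.423). Soft-masked repeats covered at least 50% of the central 200 bp in 18 peaks (3.43%), against 6.20% of lost-alone peaks (difference -2.77 points, -4.37 to -0.658, adjusted p = 0.0386). Both differences missed the threshold without the peaks that had an excluded center between 200 and 1000 bp (adjusted p = 0.119 and 0.0969).

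The promoter peaks closest to a TSS were at *Cntrl*, a centriole gene, 9 bp upstream, *Gmpr2*, a GMP reductase, 14 bp downstream, and *Tchp* 20 bp downstream. Within 100 bp also lay those of *Rnf186*, *Zfp459*, the lysophosphatidic acid receptor *Lpar6*, and *Ebp*, a sterol isomerase of cholesterol synthesis. Peaks at *Gpld1*, which encodes a GPI-specific phospholipase secreted by liver, *Enox2*, the Notch inhibitor *Numb*, the heterochromatin protein *Cbx1*, *Tmem82*, *Scamp2*, *Trim30d* and the carbohydrate kinase *Fggy* lay 112 to 238 bp upstream. Of these 15 promoter peaks, those of *Tchp*, *Ebp*, *Numb*, *Cbx1*, *Tmem82* and *Fggy* had a floxed center. None of the 15 held a BCL6 element in its central 50 bp. All gained-alone peaks held it at 10.1%, so with so few peaks this count cannot be read as a difference.

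The gained-alone peaks spread over 501 genes by the nearest TSS, 478 of them with 1 peak. Of these genes, 352 (70.3%) also had a fed BCL6 peak, 323 (64.5%) had one at a PPAR center, and 149 (29.7%) had no fed BCL6 peak. The same shares over all genes with a fasted BCL6 peak are not given here, so these counts cannot be read as particular to the gained-alone peaks. *Tbc1d1*, a Rab GTPase-activating protein of glucose uptake, had 3, all intronic. The one in intron 1, 14153 bp from the TSS, held a BCL6 element and had a floxed center, and the pair in intron 12 had neither. Genes with 2 peaks and a close TSS included *Ehhadh*, the cochaperone *Dnajb6*, *Dennd5b*, the nuclear receptor corepressor *Nrip1*, the insulin receptor substrate *Irs2*, *Rbm47*, the NF-Y subunit *Nfyb* and the sulfatase activator *Sumf1*. *Irs2* had 19 fasted and 22 fed BCL6 peaks in all, and *Nrip1* 6 and 16. The gained-alone peaks were 2 of the 2 fasted BCL6 peaks of *Dnajb6*, 2 of 3 at *Dennd5b* and 3 of 3 at *Tbc1d1*. They were 2 of 7 at *Ehhadh* and 2 of 14 at *Rbm47*, and 5.46% of all fasted BCL6 peaks. Elsewhere at the same genes, *Dnajb6* had 1 fed BCL6 peak, *Dennd5b* 3 and *Tbc1d1* 3.

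Gene lists were compared by counts, beside the share of all fasted BCL6 peaks nearest to the same genes. Fatty acid oxidation and ketogenesis genes had 4 gained-alone peaks (0.762%), at *Acot2*, *Ehhadh* (2) and *Pdk4*, the kinase that shuts pyruvate out of the TCA cycle, against 1.04% of fasted peaks. Lipid and sterol synthesis genes had 0, against 0.603%, and *Ebp* is not on that list. Gluconeogenesis and amino acid catabolism genes also had 0, against 0.458%. Insulin signaling genes had 3 (0.571% against 1.05%), at *Irs2* and *Pik3r1*, the latter 318641 bp from the TSS. With so few peaks a list, none of these shares can be read as a difference.

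The remaining lists held regulators. Hepatocyte transcription factors had 6 peaks (1.14% against 0.811%), at *Foxa2*, *Onecut2*, which encodes a relative of HNF6, the bile acid receptor *Nr1h4*, *Nr5a2*, *Nr1i2* and *Tbx3*. Of these, the peaks at *Foxa2*, *Onecut2*, *Nr1h4* and *Nr1i2* had a floxed center within 27 bp. Clock genes had 3 (0.571% against 0.385%), at *Nr1d1*, *Per3* and *Rora*, each with a floxed center, and the first pair in promoters. The *Per3* peak was 146394 bp from the nearest fed C57BL/6 BCL6 center and 12 bp from a floxed one. The *Rora* peak lay just past the limit, 208 bp from a fed C57BL/6 BCL6 center and 245 bp from a PPAR center, and the *Nr1d1* peak was 252 bp from a PPAR center. Fasting regulators had 2 (0.381% against 0.562%), at *Klf9* and in intron 2 of *Ppara* itself, where 77.0% of the central bases were repeat. Corepressor genes (*Bcor*, *Hdac4*), growth hormone and STAT pathway genes (*Socs2*, *Cux2*) and lymphocyte BCL6 targets (*Rora*, *Ccnd1*) had 2 each (0.381%), against 0.395%, 0.635% and 0.593% of fasted peaks. A floxed center was present at 34.1% of all gained-alone peaks. With so few peaks a list, neither these shares nor the floxed calls can be read as a difference.

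Markers of cell types were counted in the same way. Hepatocyte markers had 2 gained-alone peaks (0.381% against 0.281% of fasted peaks), at *Glul* and within a coding exon of *Cyp2e1*, and neither had a floxed center. So few peaks cannot be read as a difference. Markers of endothelium, stellate cells and cholangiocytes had 0, against 0.0624%, 0.0208% and 0.114% of fasted peaks. Markers of myeloid cells and lymphocytes had 0 gained-alone peaks and 0 fasted peaks in all. A fixed list held 14 of the genes with browser tracks or ChIP-qPCR regions in the study, not all of them. On that list, *Acot2* and *Ehhadh* had the 3 gained-alone peaks (0.571% against 0.541%).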

How the data were processed

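BCL6, PPARα and PPARδ ChIP-seq peak lists of mouse liver were used, 7 lists that pool 21 of the 59 samples of the series. Per the labels and the study's methods, the authors used Bowtie for alignment to mm10 and left out reads with several places and repeated starts. The authors then found peaks over input in the pooled replicates with HOMER, and with DESeq2 on the separate libraries set the limits of 2-fold enrichment and a false discovery rate of 0.05. The deposited lists hold no other value than positions (a chromosome, a start and an end), so no depth is known and no normalization applies. Starts may count from 0 or 1 and are printed as given. Near-identical gene copies, as around *Acot2*, can lack peaks because only unique reads were kept.

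Peak centers were compared at 200 bp. Promoters came from 45756 RefSeq transcripts on GRCm38.p6, and peaks were named after the closest of 21000 protein-coding genes, up to 1 Mb from its TSS. Elements were searched on both strands of central 50-bp windows: BCL6 TTCCTAGAA, HNF4 CAAAGTCCA, C/EBP TTGCGCAA, CREB TGACGTCA and NRF1 GCGCATGCG with 1 mismatch, the PPAR direct repeat of AGGTCA, inverted GTTAAT (HNF1, spacer 1) and inverted AGAACA (GR, spacer 3) with 2, and without mismatch STAT TTCNNNGAA, the half-site AGGTCA, FOXA TGTTTAC, HNF6 TATTGAT, AP-1 TGANTCA, E-box CACGTG, ETS CCGGAAG, the CTCF piece CCANNAGGG, SP/KLF GGGCGG, ERR/NR5A2 TCAAGGTCA, NFI TTGGCA and PU.1 GAGGAAGT. The half-site, ERR/NR5A2 and PPAR searches overlap, as do STAT and BCL6. Wilson intervals cover counting error only. Fisher's exact tests were two-sided and adjusted over 3 classes, 60 element tests, 2080 6-base sequences or 22 tests of the floxed split.

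Named genes were the 10 with most peaks, the 15 promoter peaks closest to a TSS, genes of the fixed lists with a peak, and the printed windows. One gene that the rule names is not reported here. STAT windows with a BCL6 element were passed over for printing, and the *Cmah*, *Pdzd8* and *Rras2* peaks and promoter windows of list genes were chosen after their values were seen. The peaks and gene lists were chosen with earlier results of these data known. The functions were tested on simulated data. Knockout, corepressor, histone and RNA samples were not used here. Software was pysam 0.24.0, SciPy 1.17.1, NumPy 2.4.6 and Matplotlib 3.10.9 under Python 3.11.15.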

Additional observations from a re-analysis of the deposited data

How the results depend on the processing

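The number of gained-alone peaks was 681 at 100 bp, 467 at 400 bp, 517 by overlap of the intervals, 536 without the PPARδ lists, 392 without the peaks 200 to 1000 bp from an excluded center, and 346 when a floxed center also removed a peak. The floxed call stayed lower than in gained peaks at PPAR sites (odds ratio 0.406 to 0.498) in the 6 ways of drawing the classes. Its ratio to kept-alone peaks was 0.0865 to 0.104, a gap that follows from the choice by the fed C57BL/6 list. Its uncalled ratio to lost-alone peaks was 1.05 at 100 bp. The BCL6 element stayed more frequent than in gained peaks at PPAR sites in all 13 alternatives (2.56 to 9.25). It was less frequent than in kept-alone peaks, past the threshold, in the alternatives other than those by floxed call, which were chosen after seeing the data. Of those, the gained-alone peaks without a floxed call still passed against all kept-alone peaks (0.321, adjusted p = 1.07e-05). The ratio did not pass with the floxed-called gained-alone peaks against all kept-alone peaks (0.990). It did not pass either with the split in every class (0.916 with and 0.538 without a floxed call). Against lost-alone peaks the ratio was 2.04 (adjusted p = 0.0158) with the floxed-called and 0.662 with the other gained-alone peaks against all lost-alone peaks, and 0.803 with the uncalled peaks of both classes. The split by floxed call was weaker for exact elements (4.65, adjusted p = 0.199).

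The PPAR element against gained peaks at PPAR sites, a contrast that the PPAR calls had drawn, passed at 100 bp (0.320), without the PPARδ lists (0.384) and in 200 bp (0.526). Its uncalled ratios turned against kept-alone peaks without the 200 to 1000 bp peaks (1.10) and in 200 bp (1.32), and against lost-alone peaks at 100 bp (0.972) and with 1 mismatch fewer (0). Promoter ratios to gained peaks at PPAR sites, not called, were 0.981 at 400 bp and 0.813 without the 200 to 1000 bp peaks, where the ratio to lost-alone peaks was weaker (1.76). The repeat ratio to lost-alone peaks was weaker at 400 bp (0.588) and without the 200 to 1000 bp peaks (0.587), and at 90% masking no gained-alone peak was left (0). With soft-masked bases unmatched, 2 of 54 tests of other elements were called lower. In 200 bp, 37 6-base sequences were more and 25 less frequent. Counting gene bodies left 9 peaks over the gene lists. The cause of these changes was not tested.

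No paired analysis was possible because each list pools its replicates, which also kept every replicate in. A stricter peak threshold was not run, as the lists hold no scores. Windows 1000 bp to either side gave the background shares in the text.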
